A study of Rattus norvegicus with 4 samples.

Results

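EPA and DHA were compared directly in primary cultures of newborn Wistar rat ventricular cardiomyocytes, by pairing arrays that carried the fatty acid in the same dye. The comparison rests on 4 two-colour arrays, all the arrays of the series, and on 14222 of the 20500 features with a value on every array. The other 6278 features, in the first 66 columns of the array grid, were left out because 1 DHA array has a local fault there. The kept features with a gene name stand for 7223 of the 9653 genes measured in the series.

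The EPA cultures were grown with 60 µM eicosapentaenoic acid and the DHA cultures with 60 µM docosahexaenoic acid. Control cultures had no added fatty acid. All cultures shared HAM F10 medium with fetal calf serum and horse serum at 10% each, renewed every 48 h, and were collected when confluent. Serum brings fatty acids of its own, so neither the treated nor the control cells were free of lipid. Each array set the cRNA of treated cells against that of control cells. Fatty-acid cRNA was in Cy5 on EPA-1 and DHA-1 and in Cy3 on EPA-2 and DHA-2. Each dye swap was counted as 1 RNA sample per fatty acid, since no source used here says that its arrays hold separate cultures. The difference between EPA and DHA therefore has no biological replicate check. Whether both fatty acids were set against 1 shared control RNA is not stated in the labels.

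EPA and DHA are the main long-chain omega-3 fatty acids of fish oil. DHA has the longer chain and more double bonds. Both enter membrane phospholipids, displace arachidonic acid from the pool that feeds eicosanoid synthesis, and act as ligands of PPAR nuclear receptors, which switch on genes of fatty acid oxidation. Polyunsaturated fatty acids also lower the activity of SREBP factors, which drive sterol and fatty acid synthesis.

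Values are log2 ratios of treated over control cells, centred on the median of each array. Pair 1 is EPA-1 minus DHA-1 and pair 2 is EPA-2 minus DHA-2. A positive value means a higher ratio with EPA. The mean of the pairs is given with ±, the distance of either pair from that mean, which reflects labelling and array error only. A gene counted as higher or lower with EPA when both pairs passed 1.3-fold in that direction, which is 0.38 on the log2 scale. The base of the logarithm and the direction of the deposited ratios are not stated, so treated over control in base 2 is the likely reading and not a settled one. In such whole-culture RNA, fewer cells of a type and less RNA per cell cannot be told apart. The ratios hold no expression level, so the presence of cardiomyocyte markers could not be checked.

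EPA and DHA differed past the threshold at few genes. With EPA 15 genes were higher, 0.208% of the 7223, and 8 were lower, 0.111%. The higher genes included the matrix protein gene Sparc, the growth factor binding genes Gpc3 and Igfbp3, the chromatin enzyme gene Hdac1 and the sterol enzyme gene Cyp51. The lower genes included Asip, Zp2, Gsta3, Reg3b and the angiotensin receptor gene Agtr1a. At 1.5-fold in both pairs 3 genes were higher (0.0415%) and 2 were lower (0.0277%). A further 7 genes passed 1.3-fold in opposite directions in the 2 pairs, and 1 gene did so at 1.5-fold. The count in a common direction was thus 23 against 7 in opposite directions.

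Agreement between the pairs across all genes was weak. Pearson's r was 0.18 and Spearman's rho 0.16 over 7223 genes, as a description, since genes are not independent and each pair shares its dye orientation. The pairs had the same sign for 54.9% of genes. EPA was above DHA in both pairs for 24.5% of genes and below it for 30.4%. Taken singly, pair 1 passed 1.3-fold at 572 genes and pair 2 at 143, so the threshold in pair 2 removed most of the genes of pair 1. The interquartile range over kept features was 0.21 in pair 1 and 0.17 in pair 2.

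**Figure D1:**
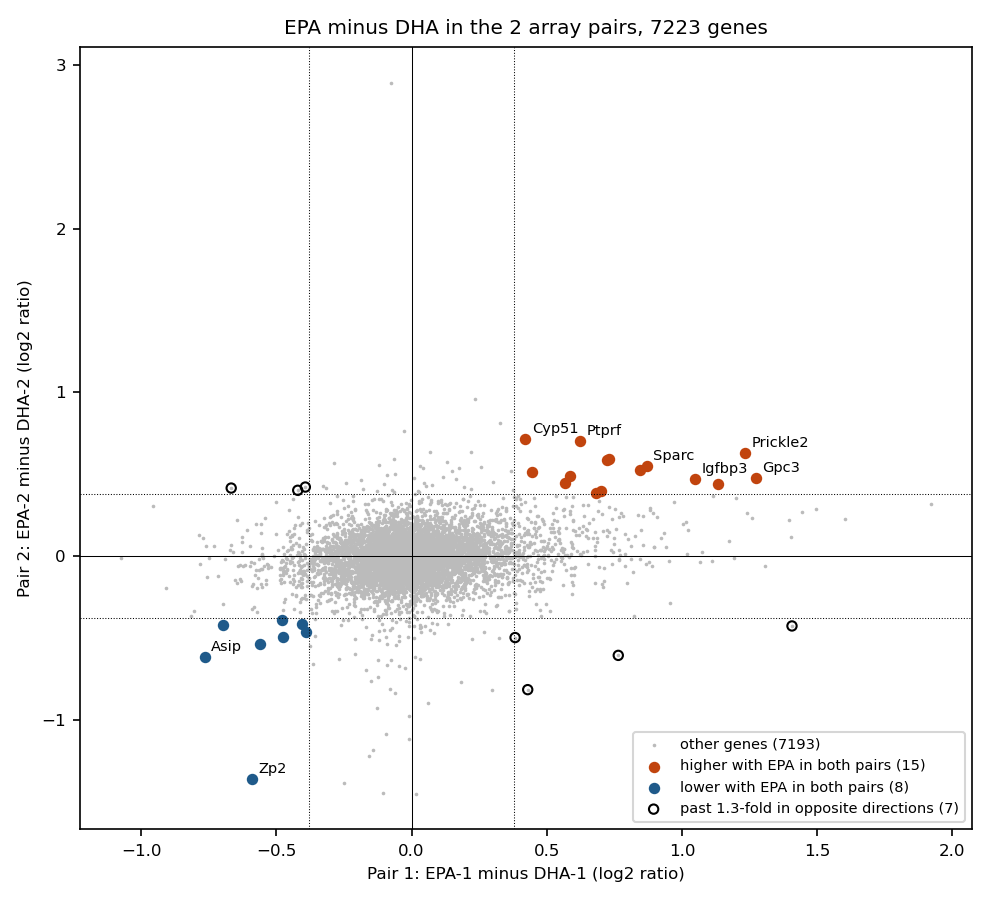
EPA minus DHA in pair 2 (vertical, log2 ratio) against pair 1 (horizontal, log2 ratio) for 7223 genes, with dotted lines at 1.3-fold. Orange points are the 15 genes higher with EPA in both pairs, blue points the 8 lower ones and open circles the 7 genes past the line in opposite directions; most genes form a cloud with little slope.

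Some wide differences in 1 pair were small in the other. The genes at either end of each pair, over named genes with probes averaged, are given here after their values were seen. Pdlim5, a Z-disc protein gene, had the highest pair 1 difference, 1.92, but 0.31 in pair 2. Bnip3, a mitophagy gene, had the lowest, -1.07, but -0.01 in pair 2. Cpg1 was highest in pair 2 at 2.89 and stood at -0.08 in pair 1. Ypel2 was lowest in pair 2 at -1.45 and stood at 0.02 in pair 1.

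Position on the array moved with the higher genes. The last 35 grid columns held 23.4% of kept features, and their median was 0.08 in pair 1 and 0.02 in pair 2, against -0.04 and -0.01 in the other kept columns. Of the 15 higher genes 9 lay in these columns, and of the 8 lower genes 1 did. The 9 were Ptprf, Sparc, Pcmtd2, Gpc3, Igfbp3, Gas6, Tcf7l1, Cyp51 and Mical2. Without these columns, a setting chosen after the data were seen, 7 genes were higher and 7 lower. After a running local median was taken off each array, 15 were higher, 11 of them among the 15 above, and 7 were lower, 4 of them among the 8. The part of position in single genes was not tested.

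Among matrix and growth factor genes, Sparc encodes a collagen-binding matricellular protein made by fibroblasts and by growing tissue. Its log2 ratio to control was 0.47 on EPA-1 and 0.91 on EPA-2, against -0.40 on DHA-1 and 0.37 on DHA-2. Both EPA arrays lay above both DHA arrays. The difference was 0.87 in pair 1 and 0.55 in pair 2, a mean of 0.71 ± 0.16 or 1.63-fold.

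Gpc3 encodes glypican-3, a cell-surface heparan sulfate proteoglycan that binds growth factors and morphogens. It stood at 0.65 on EPA-1 and -0.34 on EPA-2, against -0.62 on DHA-1 and -0.82 on DHA-2. EPA-2 and both DHA arrays were below control, and both EPA arrays lay above both DHA arrays. Its difference was 1.27 in pair 1 and 0.47 in pair 2 (mean 0.87 ± 0.40), so the pairs differed widely in size. Igfbp3, the main carrier of insulin-like growth factors in serum, stood at 0.74 and -0.22 on the EPA arrays, against -0.31 and -0.69 on the DHA arrays. It showed the same order of arrays as Gpc3, with a mean difference of 0.76 ± 0.29. Gas6 encodes a ligand of the Axl, Tyro3 and Mer receptors. It stood at -0.19 and 0.85 with EPA, against -0.76 and 0.40 with DHA, so the arrays of the groups overlapped although both pairs were positive (0.57 and 0.45). A second Gas6 probe, in the columns left out, had 0.21 in pair 2, where the fault of DHA-1 plays no part.

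Gpc3 and Igfbp3 belonged to the list of secreted growth factor modulators and matrix regulators, of which 2 of 26 measured members were higher and 0 lower. Over all genes 0.208% were higher and 0.111% lower. In that list 11 members lay above 0 in both pairs and 7 below. Those shares were 42.3% and 26.9%, beside 24.5% and 30.4% over all genes. Its median difference was 0.11, against -0.01 for all genes.

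Among signalling and cell polarity genes, Prickle2 encodes a planar cell polarity protein of the non-canonical Wnt pathway. It stood at 1.25 on EPA-1 and 0.32 on EPA-2, against 0.02 on DHA-1 and -0.31 on DHA-2. Its mean difference was 0.93 ± 0.30 (1.91-fold), and both pairs passed 1.5-fold. Ptprf, which encodes the receptor tyrosine phosphatase LAR, had 0.59 and 0.29 on the EPA arrays, against -0.04 and -0.41 on the DHA arrays. Both EPA arrays were above control and both DHA arrays below it, and the mean difference was 0.66 ± 0.04. Tcf7l1, a transcription factor gene that represses Wnt targets, had 0.25 and 0.52 with EPA, against -0.20 and 0.01 with DHA (0.48 ± 0.03). Map4k4, a kinase gene of the JNK pathway, had 0.46 and 0.19 with EPA, against -0.24 and -0.21 with DHA (0.55 ± 0.15). Mical2, whose product oxidises actin, had 0.28 and 0.42 with EPA, against -0.40 and 0.04 with DHA (0.53 ± 0.15). In these 5 genes both EPA arrays lay above both DHA arrays, as in 11.7% of all genes. A call of this size nearly fixes that order, so nothing is read from it. Map4k4 and Mical2 ranked below the 12 highest and were named after their values were seen. Their probes in the columns left out had 0.16 and 0.04 in pair 2, well under the 0.39 and 0.38 of the kept probes. Gas6, Tcf7l1 and Map4k4 did not pass with the local median removed, and Mical2 did not pass under 3 other ways of centring or scaling.

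Among regulators of chromatin and RNA, Hdac1 encodes a histone deacetylase. It stood at 0.79 on EPA-1 and 0.28 on EPA-2, against -0.35 on DHA-1 and -0.16 on DHA-2. EPA was above control and DHA below it on every array, with a mean difference of 0.79 ± 0.35 or 1.73-fold. Irf2bpl, a nuclear regulator gene, had 0.65 and 0.52 with EPA, against -0.08 and -0.07 with DHA (0.66 ± 0.07), and both pairs passed 1.5-fold. Adarb1 encodes an enzyme that edits adenosines in double-stranded RNA, and had 0.29 and 0.21 with EPA, against -0.43 and -0.38 with DHA (0.65 ± 0.07). Ddx6, an RNA helicase gene of processing bodies, had 0.85 and 0.14 with EPA, against 0.00 and -0.38 with DHA (0.69 ± 0.16). Pcmtd2, a gene of the isoaspartate methyltransferase family, had 0.23 and 0.13 with EPA, against -0.35 and -0.36 with DHA (0.54 ± 0.05). In these 5 genes too, both EPA arrays lay above both DHA arrays, beside 11.7% of all genes. The rule for a call nearly fixes this order.

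Cyp51 was the sterol synthesis gene that passed the threshold. It encodes lanosterol demethylase, an early enzyme of the branch from lanosterol to cholesterol, and its gene is a known target of SREBP and of cAMP-responsive factors. Its promoter is shown because Cyp51 was the single member past the threshold among the lipid metabolism lists. It is given as RefSeq has it in the GRCr8 assembly, from 250 bases before to 50 after the annotated start, with TGACG, the half-site of cAMP response elements, in capitals (chr4:30991443-30991742, plus strand).
Cyp51: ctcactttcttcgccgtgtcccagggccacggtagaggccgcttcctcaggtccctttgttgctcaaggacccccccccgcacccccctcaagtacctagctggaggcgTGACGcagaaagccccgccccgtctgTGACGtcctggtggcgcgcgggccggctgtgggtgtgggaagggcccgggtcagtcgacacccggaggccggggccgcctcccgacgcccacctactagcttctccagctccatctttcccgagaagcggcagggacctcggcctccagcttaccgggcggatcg
TGACG was searched on both strands and matched at positions -141 and -115 from the start. Of 33469 rat promoter windows of this length 21.2% held it. TCACNCCA, a core of sterol response elements, had 0 matches in this window and was in 3.89% of windows. These are matches of letters and not binding sites.

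The kept Cyp51 probe stood at 0.12 on EPA-1 and 0.23 on EPA-2, against -0.30 on DHA-1 and -0.48 on DHA-2. EPA was above control and DHA below it on every array, with differences of 0.42 and 0.72 (mean 0.57 ± 0.15). Of its 2 probes in the columns left out, 1 had 0.51 in pair 2 and the other 0.02. The probes of Cyp51 thus disagreed, and Cyp51 did not pass with arrays centred on all features or with the local median removed.

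The other sterol genes stayed under the threshold. Of 21 measured members of cholesterol synthesis and uptake 10 lay above 0 in both pairs and 4 below, with a median of 0.04 against -0.01 for all genes. Those shares were 47.6% and 19.0%, beside 24.5% and 30.4% over all genes. Tm7sf2, a sterol reductase gene, had 0.27 in pair 1 and 0.31 in pair 2. Srebf2, which encodes the transcription factor SREBP-2, had 0.35 and 0.18 as the mean of probes that disagreed, at 0.63 and 0.32 for 1 probe and 0.06 and 0.04 for the other. Sc5d, a late sterol desaturase gene, was below control on all 4 arrays, with -0.12 and -0.13 for EPA, against -0.24 and -0.26 for DHA. Its difference was small and close in both pairs (0.13 ± 0.01).

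The lower genes encode proteins of unlike kinds. Zp2 encodes a glycoprotein of the egg coat with no known role in heart. It stood at -0.11 on EPA-1 and -0.17 on EPA-2, against 0.49 on DHA-1 and 1.19 on DHA-2. Its DHA arrays differed by more than its EPA arrays, and its mean difference was -0.98 ± 0.39, or 1.97-fold lower with EPA. Asip encodes agouti, a secreted antagonist of melanocortin receptors. It stood at 0.04 and -0.05 on the EPA arrays, against 0.80 and 0.57 on the DHA arrays. EPA was close to control and DHA above it, and both pairs passed 1.5-fold (mean -0.69 ± 0.07). Gsta3, a glutathione S-transferase gene of detoxification, had -0.08 and -0.22 with EPA, against 0.48 and 0.32 with DHA, a difference of -0.55 ± 0.01.

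Agtr1a encodes the type 1a angiotensin II receptor, which drives vasoconstriction and cardiac hypertrophy. It stood at -0.65 and -0.23 with EPA, against -0.17 and 0.17 with DHA (mean -0.44 ± 0.04). It was the 1 of 21 measured hypertrophy and fetal cardiac genes past the threshold, beside 0.111% of all genes lower. In that list 9 members lay above 0 in both pairs and 3 below, with a median of 0.06. Those shares were 42.9% and 14.3%, beside 24.5% and 30.4% over all genes. Lysmd2 had -0.27 and -0.27 with EPA, against 0.12 and 0.20 with DHA (-0.43 ± 0.04). Ppp1cb-ps7 is annotated as a pseudogene of a protein phosphatase subunit, so its probe may also bind transcripts of the parent gene. It had -0.82 and -0.36 with EPA, against -0.13 and 0.06 with DHA (-0.56 ± 0.14). Cmss1 had -0.46 and -0.01 with EPA, against -0.06 and 0.41 with DHA, so its arrays overlapped despite a difference of -0.41 ± 0.01. Agtr1a, Lysmd2, Ppp1cb-ps7 and Cmss1 did not pass with the local median removed.

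**Figure D2:**
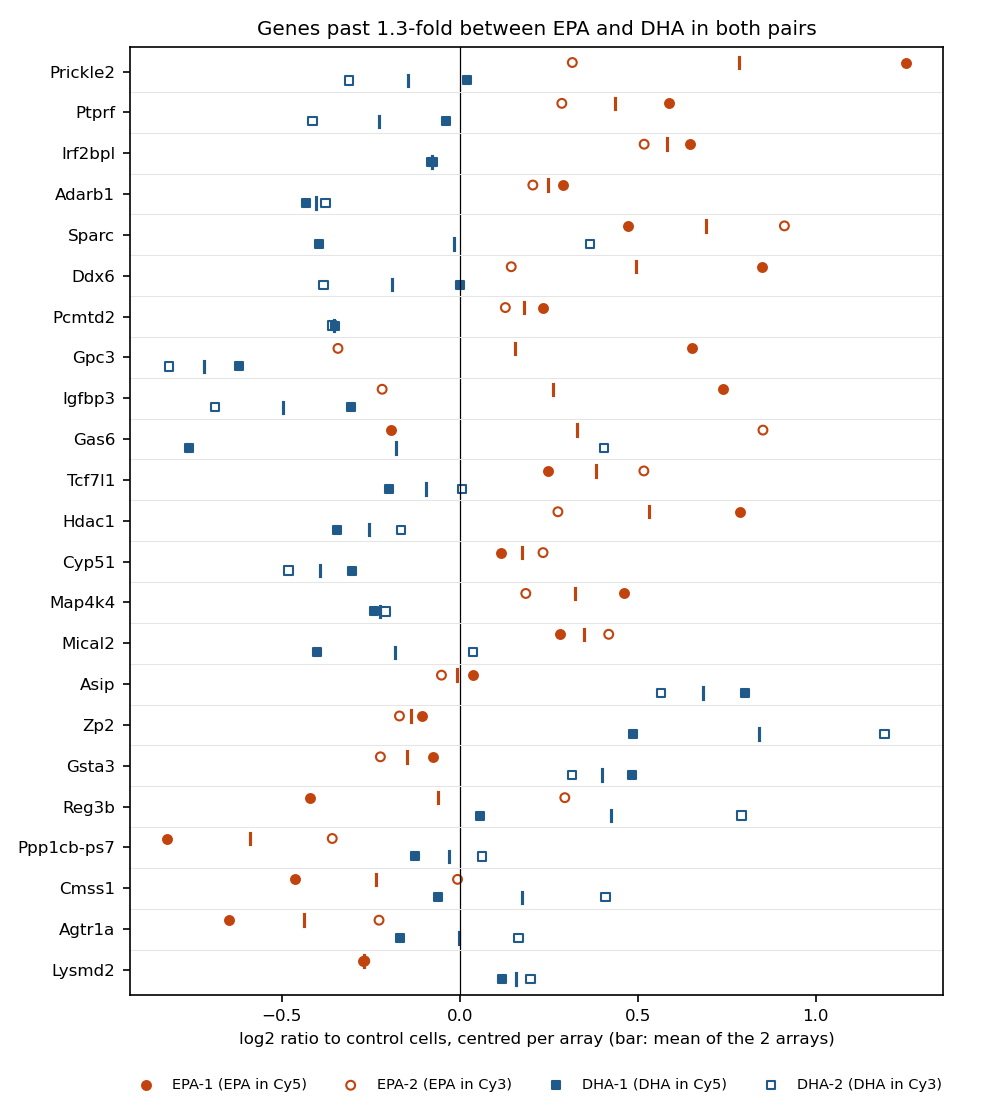
Log2 ratio to control cells on each array for the 15 genes higher and the 8 lower with EPA, with EPA as orange circles above DHA as blue squares, filled for arrays 1 and open for arrays 2. Bars mark the mean of the 2 arrays. The groups separate in all but Gas6, Reg3b and Cmss1, an order that the rule for a call nearly fixes.

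Reg3b encodes a secreted C-type lectin with antibacterial action that is induced in injured tissue. It stood at -0.42 on EPA-1 and 0.30 on EPA-2, against 0.06 on DHA-1 and 0.79 on DHA-2. The groups overlapped because both arrays 2 were higher than their arrays 1, but the difference was nearly equal in the pairs (-0.48 and -0.50). Reg3g, a paralog from the same gene cluster, lay just under the threshold in pair 2 and was chosen here after its values were seen. It stood at -0.34 and -0.06 on the EPA arrays, against 0.47 and 0.31 on the DHA arrays. Its difference was -0.81 in pair 1 and -0.37 in pair 2 (mean -0.59 ± 0.22). The genes are close in sequence, and whether the probes tell them apart was not tested.

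The promoters of the pair are shown because the genes were lower together. Both are as RefSeq has them in GRCr8, over the same window as above, with TATAAA in capitals (Reg3b chr4:112419526-112419825, plus strand; Reg3g chr4:112484689-112484988, minus strand).
Reg3b: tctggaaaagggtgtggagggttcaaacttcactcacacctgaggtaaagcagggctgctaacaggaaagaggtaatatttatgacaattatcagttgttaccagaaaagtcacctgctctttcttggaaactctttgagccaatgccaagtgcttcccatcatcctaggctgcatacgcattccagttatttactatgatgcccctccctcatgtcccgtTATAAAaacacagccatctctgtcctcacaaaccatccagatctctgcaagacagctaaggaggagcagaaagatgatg
Reg3g: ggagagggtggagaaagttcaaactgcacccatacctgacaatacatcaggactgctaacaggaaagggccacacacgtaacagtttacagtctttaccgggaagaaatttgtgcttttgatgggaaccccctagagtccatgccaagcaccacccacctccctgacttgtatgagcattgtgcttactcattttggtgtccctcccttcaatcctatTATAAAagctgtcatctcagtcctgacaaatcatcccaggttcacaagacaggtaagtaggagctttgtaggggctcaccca
TATAAA, searched on both strands, lay at -29 in Reg3b and at -32 in Reg3g, and in 14.2% of all windows. The aligned windows were identical at 198 of 291 positions, 68.0%. TTCNNNGAA, the site of STAT factors, had 1 match in Reg3b and 0 in Reg3g, and was in 8.87% of windows.

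Of the 15 higher genes 14 had both EPA arrays above both DHA arrays, and of the 8 lower genes 6 had them below. Over all genes each of these orders held for 11.7%, but a call of this size nearly fixes the order, so nothing is read from it. In 7 higher and 3 lower genes the EPA arrays were on one side of control and the DHA arrays on the other. A call of this size favours that split too, and its share over all genes was not counted, so nothing is read from it. All 23 rested on 1 kept probe each. Just under the threshold were Ing1 (0.37 in pair 1 and 0.40 in pair 2), Dram1 (0.39 and 0.37) and Tgm2 (0.37 and 0.52) on the higher side, and Nedd4 (-0.37 and -0.55) and Kdelr2 (-0.36 and -0.66) beside Reg3g on the lower side.

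Genes past 1.3-fold in opposite directions included Egr1, an immediate early transcription factor gene, with 0.76 in pair 1 and -0.61 in pair 2. Sftpc, the lung surfactant protein C gene, had 1.41 and -0.43, and Spp1, which encodes osteopontin, had -0.67 and 0.41. The others were Cstf1, Rpl27, Rpl10a and Mgp. For these 7 genes the mean of the pairs says little.

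Genes that earlier comparisons with control had brought forward mostly stayed under the threshold between EPA and DHA. Of 27 such genes 25 had a kept probe, 1 was higher (Gpc3) and 1 lower (Asip). Over all genes 0.208% were higher and 0.111% lower. Of the 25, 17 lay on the same side of control on all 4 arrays, and in 8 of these 17 the pairs differed in sign. The genes were brought forward by these same arrays, so nothing is read from the count of 17. Cpt1b, a muscle enzyme gene of the carnitine shuttle that brings fatty acids into mitochondria, stood at 0.97 and 0.87 on the EPA arrays, against 1.27 and 0.96 on the DHA arrays. Its difference was -0.19 ± 0.11, with a 95% interval of -0.43 to 0.04 in limma over the 4 arrays, which covers array error only. Cpt1a, the liver form, had 0.40 and 1.07 with EPA, against 0.38 and 0.88 with DHA (0.10 ± 0.09). Hilpda, a lipid droplet protein gene, had 0.78 and 0.58 with EPA, against 0.75 and 0.67 with DHA. Its difference of -0.03 ± 0.06 was small beside its distance from control, and its interval ran from -0.25 to 0.19. Plin2, which coats lipid droplets, differed by 0.03 ± 0.07 and Ucp3, a mitochondrial carrier gene, by -0.03 ± 0.09. The Plin2 probes disagreed in pair 1, at 0.09 and -0.17, and had 0.12 and 0.07 in pair 2.

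Across the 19 measured members of mitochondrial beta-oxidation 0 passed the threshold, 5 lay above 0 in both pairs and 5 below, and the median was -0.03. Each share was 26.3%, beside 24.5% above and 30.4% below over all genes. Above 0 in both pairs were Crat, a carnitine acetyltransferase gene (0.36 in pair 1 and 0.03 in pair 2), Cpt2, the inner membrane enzyme gene of the carnitine shuttle (0.23 and 0.03), Mlycd (0.04 and 0.03) and Acad10 (0.01 and 0.05) among others. They fall outside the naming rule and are given so that both sides of the list are shown. Ech1, an auxiliary enzyme gene for unsaturated chains, differed by 0.05 in pair 1 and -0.23 in pair 2. Decr1, the dienoyl-CoA reductase gene that is needed for polyunsaturated chains, had 0.22 and 0.42 with EPA, against 0.31 and 0.74 with DHA (-0.20 ± 0.12). The Decr1 probes disagreed in pair 1, at 0.10 and -0.27, and had -0.43 and -0.21 in pair 2. Eci2, an enoyl-CoA isomerase gene, had 0.01 and 0.19 with EPA, against 0.60 and 0.36 with DHA (-0.38 ± 0.21). Etfdh and Etfb, which pass electrons from acyl-CoA dehydrogenases on, differed by -0.26 ± 0.12 and -0.20 ± 0.04. The Etfdh probes had -0.36 and -0.40 in pair 1 but disagreed in pair 2, at -0.28 and 0.003. Acadvl, the very long chain dehydrogenase gene, had -0.26 in pair 1 and 0.04 in pair 2. For 7 peroxisomal oxidation genes the median was -0.10, with 2 above and 4 below.

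Star and Dhrs3 differed in opposite ways. Star, which moves cholesterol into mitochondria for steroid synthesis, had 0.19 and 0.54 with EPA, against 0.95 and 0.67 with DHA. Every array was above control, and the difference was -0.76 in pair 1 but -0.13 in pair 2. Dhrs3, a retinal reductase gene, had 0.77 and 0.68 with EPA, against 0.45 and 0.43 with DHA. Its difference of 0.28 ± 0.03 was close in the pairs. The unadjusted limma interval of Dhrs3 was 0.07 to 0.50, which covers array error only, and its adjusted p in limma was 0.584. Cyp26b1, which breaks down retinoic acid, had 1.16 and 0.31 with EPA, against 0.05 and -0.05 with DHA. Its pairs were 1.11 and 0.36, so it missed the threshold in pair 2. Over the 13 measured genes of retinoid and steroid metabolism the median was 0.01.

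Among genes below control, Mmp12, a macrophage elastase gene, had -0.81 and -0.48 with EPA, against -1.09 and -0.66 with DHA (0.23 ± 0.05). The Mmp12 probes had 0.32 and 0.24 in pair 1 but disagreed in pair 2, at 0.03 and 0.32. Ceacam4 had -0.70 and -0.55 with EPA, against -0.91 and -0.78 with DHA (0.22 ± 0.01). Grem1, a BMP antagonist gene, had -0.26 and -0.67 with EPA, against -0.69 and -0.74 with DHA (0.25 ± 0.18). These 3 genes were nearer to control with EPA in both pairs, at less than the threshold. Lyz2 differed by 0.07 ± 0.07, Fmod by 0.10 ± 0.15 and Pnoc by -0.04 ± 0.08. The Lyz2 value is a mean of probes that disagreed, at 0.26 and -0.26 in pair 1 and 0.16 and 0.11 in pair 2.

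The desaturase and elongase genes of polyunsaturated fatty acid synthesis showed no difference past the threshold. Fads1 had -0.30 in pair 1 and 0.08 in pair 2, Fads2 -0.10 and 0.17, and Elovl5 0.01 and -0.20. Elovl2 and Angptl4 had no kept probe and were not analysed here. The natriuretic peptide genes Nppa (0.08 ± 0.07) and Nppb (-0.27 ± 0.33) and the kinase gene Pdk4 (-0.10 ± 0.07) also stayed under it.

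**Figure D3:**
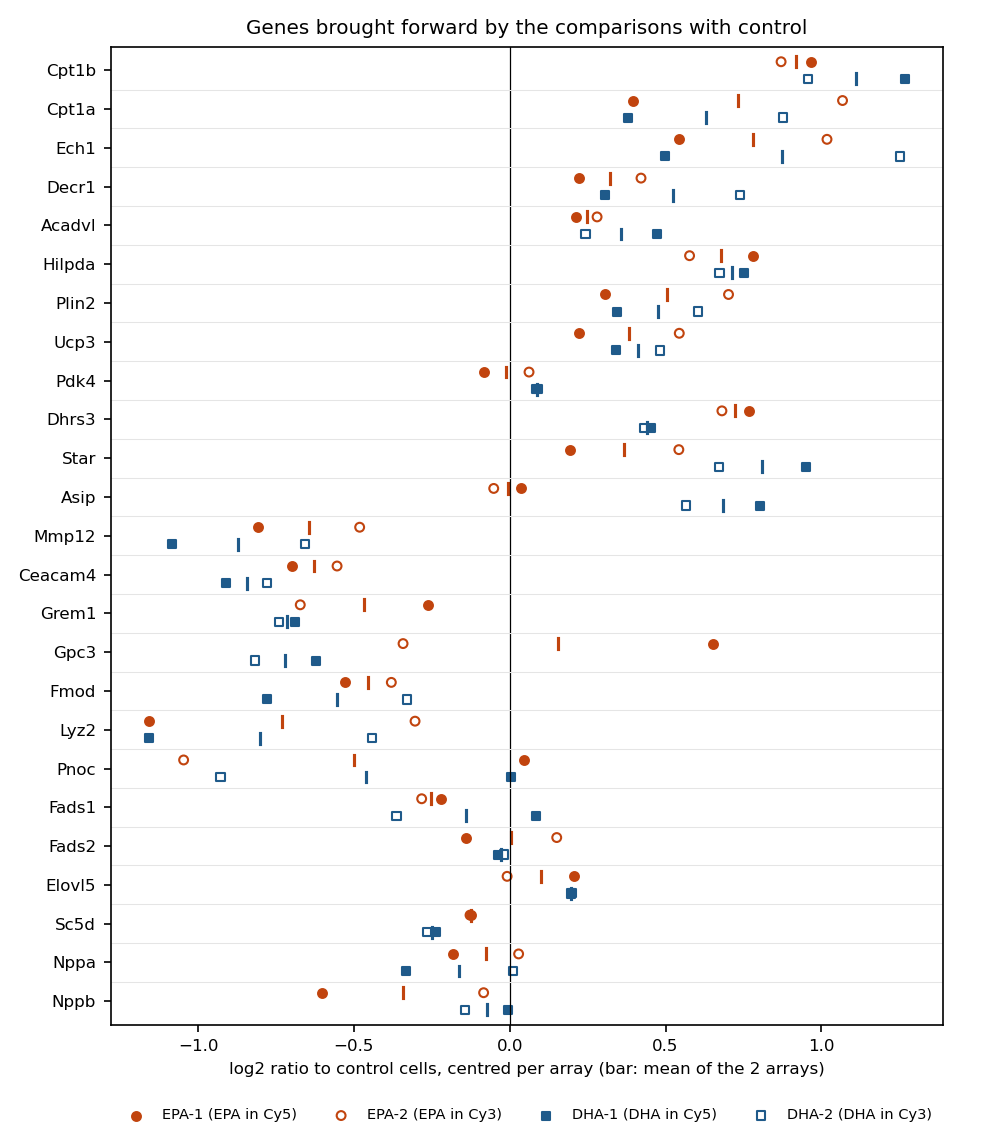
Log2 ratio to control cells on each array for the 25 measured genes that earlier comparisons with control brought forward, with EPA as orange circles above DHA as blue squares, filled for arrays 1 and open for arrays 2. Asip and Gpc3 are the genes past the threshold; for Hilpda and Plin2 the EPA and DHA arrays interleave.

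Over 21 function lists the threshold was passed in 3 lists, by Cyp51, Agtr1a, Gpc3 and Igfbp3. List medians lay between -0.10 and 0.11. The medians were above 0 in both pairs for 8 lists, below 0 in both for 4 and on different sides for 9. The shares of members on one side in both pairs stand beside 24.5% above and 30.4% below over all genes. Membrane phospholipid remodelling had 7 of 16 members above 0 in both pairs and 1 below, with a median of 0.05. Its leading members were Agpat4, an acyltransferase gene (0.54 in pair 1 and 0.15 in pair 2), Lpcat1, which reacylates lysophosphatidylcholine (0.32 and 0.21), and Pcyt1a, the rate-limiting enzyme gene of phosphatidylcholine synthesis (0.35 and 0.20). In the columns left out, another Lpcat1 probe had 0.23 in pair 2 and another Pcyt1a probe -0.002. Glucose uptake and glycolysis (median 0.06) had 11 of 24 above 0 in both pairs and 2 below, led by Gpi (0.49 and 0.21), Tpi1 (0.65 and 0.20) and Eno1 (0.21 and 0.30) among the enzyme genes of glycolysis. Another Gpi probe, in the columns left out, had 0.10 in pair 2. Heat shock and endoplasmic reticulum chaperones (median 0.09) had 10 of 24 above and 5 below, with Calr at 0.56 and 0.24 and the collagen chaperone gene Serpinh1 at 0.26 and 0.54.

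Lists with a share below 0 in both pairs over that of all genes included the respiratory chain and citrate cycle (median -0.10), with 8 of 34 above 0 in both pairs and 14 below. Cytochrome c, Cycs, had -0.45 in pair 1 and -0.12 in pair 2. The antioxidant list (median -0.07) had 4 of 25 above and 9 below, led by Gstp1 (-0.21 and -0.60), Prdx1 (-0.42 and -0.15) and Sod1 (-0.29 and -0.18). Cell cycle and DNA replication (median -0.04) had 2 of 25 above and 9 below, with Mcm7 at -0.09 and -0.34. The Mcm7 probes disagreed in pair 1, at -0.19 and 0.0007, and had -0.49 and -0.18 in pair 2. Fatty acid synthesis (median -0.07) had 1 of 11 above and 4 below, with the elongase gene Elovl7 at -0.12 and -0.27. Another Elovl7 probe, in the columns left out, had 0.01 in pair 2.

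The lists that follow had a share below 0 in both pairs under that of all genes. Phospholipases and eicosanoid synthesis (median -0.02) had 1 of 19 above and 5 below. Its member Pla2g4a, the phospholipase gene that frees arachidonic acid, had -0.12 and -0.13. The 16 PPAR target genes (median -0.03) had 2 above and 4 below, with Cyp4b1 at -0.70 and -0.30. Fatty acid uptake and lipid droplets (21 measured) had a median of 0.04, with the droplet protein gene Cidea at -0.35 and -0.27. Cytokines, chemokines and adhesion (26) had a median of 0.06, with the adhesion receptor gene Vcam1 at -0.36 and -0.49 and the chemokine gene Cxcl12 at 0.40 and 0.28. The median was 0.03 for lipid-sensing receptors (17), 0.01 for sarcomere genes (14), 0.02 for calcium handling (20) and -0.01 for apoptosis genes (23). The oxygen carrier gene of muscle, Mb, had 0.21 and 0.34. With arrays centred on all features, which moves the median of all genes to -0.05, the receptor, sarcomere, calcium and retinoid medians fell below 0.

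**Figure D4:**
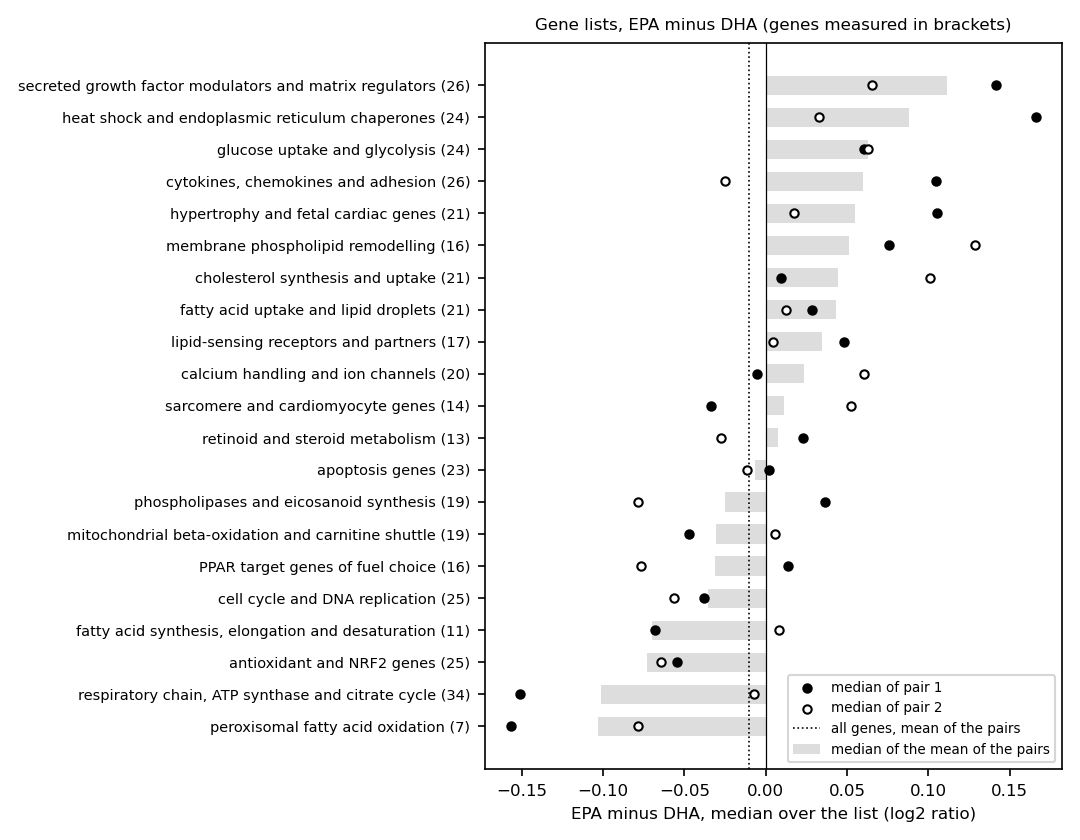
Median EPA minus DHA (log2 ratio) over each of 21 function lists, with the number of measured genes in brackets. Grey bars are the median of the mean of the pairs, filled points pair 1, open points pair 2 and the dotted line all genes (-0.01); all bars lie between -0.10 and 0.11.

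No cell type marker but Sparc passed the threshold. Medians were -0.05 over 3 of 8 cardiomyocyte markers, 0.04 over 14 of 22 fibroblast markers, 0.07 over 5 of 11 smooth muscle markers, -0.03 over 9 of 14 endothelial markers and 0.04 over 12 of 23 macrophage markers. Red cell (-0.01, 5 of 8) and epicardial (-0.03, 3 of 7) markers had medians near 0. The smooth muscle median was 0.16 without the 1 member that carries a value shared by many features. Of the 14 measured fibroblast markers 3 were above 0 in both pairs, Sparc among them. The 2 below were Lox (-0.65 and -0.16) and Lum (-0.21 and -0.13). These shares were 21.4% and 14.3%, beside 24.5% and 30.4% over all genes. The fibroblast median was -0.06 in pair 1 and 0.10 in pair 2. The part of cell composition in the called genes was not tested.

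Of 5385 features without a gene name 18 were higher and 1 lower, with 1 in opposite directions. Over all 14222 kept features 43 were higher and 10 lower, with 10 in opposite directions. On arrays 1, 36 kept features carried a value shared by many features. The cause of the shared value was not tested. The 18 at the shared value on both arrays have the same pair 1 difference, -0.28, by construction, and in pair 2 they ranged from -0.34 to 0.34. Of 28 named features with such a value 17 were for ribosomal proteins. Among the named genes Ccl2 and Cstf1 are such, so 1 of the 7 genes past 1.3-fold in opposite directions rests on a shared value. No gene past the threshold in a common direction carried one.

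If the swap arrays held separate RNA samples, limma could test the difference over the 4 arrays with the dye orientation as a block. It then called 0 of 14222 features after Benjamini-Hochberg adjustment, with a lowest adjusted p of 0.337. An unadjusted p under 0.05 was seen for 1082 features, beside 711 expected with no difference, and the excess was not tested. Even Zp2 and Prickle2 did not pass, with adjusted p of 0.392 and 0.337 in limma. The median distance from a difference to either end of its unadjusted 95% interval was 0.22. This does not show that EPA and DHA act alike. The counts also depend on how the table is read: as Cy5 over Cy3 on every array, 4 genes were higher and 3 lower, none of them among the 23.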

How the data were processed

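Per the labels, cRNA of treated and control cells was hybridised to an Agilent rat oligonucleotide array with the dyes swapped. The deposited values, from the authors, were read as log2 ratios. The base and direction of the logarithm, the scanning program and any correction for background or dye are not given in these sources. Arrays 1 mostly carry 9 decimals and arrays 2 mostly 6, so their processing may have differed.

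Each array was centred on its median over the kept features. Gene names come from the platform's annotation, which is old, and were brought to current symbols with a GRCr8 gene table: of 14222 kept features 8837 had 1 gene (8814 matched by ID, 23 kept the older symbol), 4 had several and 5381 were unlisted and are unnamed. Probes of a gene were averaged (1275 genes had more than 1). No spot intensities were used, so depth and background are unknown, and the number of arrays limits the precision.

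Genes were named by rule: up to 12 per direction past 1.3-fold in both pairs, by the smaller difference, up to 5 in each opposite pattern, called list members, 27 genes from the comparisons with control, and, for lists without a call, up to 3 members with the largest smaller difference. From these last, those that bear on the text are given. The lists (759 genes, 452 with a kept probe), the genes and the rules were chosen with earlier results of these data known. Replicate numbers mark the dye orientation, per the labels, and so pair the arrays. R 4.3.3 with limma 3.58.1 (two-sided, Benjamini-Hochberg, threshold 0.05; tested on simulated data), Python 3.11.15, pandas 2.3.3, numpy 2.4.6 and Biopython 1.88 (promoter alignment) were used. Promoter sequences are from RefSeq. Alternatives covered columns, centring, scaling, local position, direction, log base, fold, probes, shared values and each array pair left out.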

Additional observations from a re-analysis of the deposited data

Results flagged for a closer look

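In 10 of the 23 genes past the threshold both EPA arrays lay on one side of control and both DHA arrays on the other. The rule for a call favours such a split, and its share over all genes was not counted, so nothing is read from the 10. With each swap counted as 1 RNA sample, the difference has no test. The limma fit over the 4 arrays, which applies only if they hold separate samples, gave these genes adjusted p of 0.337 to 0.441. EPA was above and DHA below control for Hdac1 (mean difference 0.79), Ptprf (0.66), Irf2bpl (0.66), Adarb1 (0.65), Cyp51 (0.57), Map4k4 (0.55) and Pcmtd2 (0.54). EPA was below and DHA above control for Zp2 (-0.98), Gsta3 (-0.55) and Lysmd2 (-0.43).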

How the results depend on the processing

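Without a swap partner the higher count ranged from 58 to 360 and the lower from 85 to 212, against 15 and 8 with both pairs. With all features kept the counts were 26 and 13. Centring on all features gave 13 lower genes, quantile normalization 26 higher ones, and counting features 43 higher. At 1.2-fold 67 were higher and 41 lower, and at 1.5-fold 3 and 2. Read as log10 ratios, 397 and 439 passed. Read as Cy5 over Cy3, 4 and 3 passed, and 7 of the 23 mean differences turned: Zp2 0.39, Cyp51 -0.147, Ptprf -0.0382, Lysmd2 0.0381, Tcf7l1 -0.0322, Reg3b 0.00972 and Cmss1 0.00606. With the last 35 columns left out too, chosen after the data were seen, 7 were higher, 6 of them among the 15. The cause of these shifts was not tested.

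Of the 23 genes 14 passed under each of centring on all features, equal interquartile range, quantile normalization and the local median: Prickle2, Ptprf, Irf2bpl, Adarb1, Sparc, Ddx6, Pcmtd2, Gpc3, Igfbp3, Hdac1, Asip, Zp2, Gsta3 and Reg3b. Agtr1a, Cmss1, Cyp51, Gas6, Lysmd2, Map4k4, Mical2, Ppp1cb-ps7 and Tcf7l1 were lost under at least 1 of these. Of 207 values of the 23 genes under all alternatives, 0 turned outside the Cy5 over Cy3 reading. Values from a single pair could not turn, since the rule for a call fixes their sign. Leaving out shared values could not change these genes either, so nothing is read from the 0. Of 252 list medians under alternatives 58 moved by more than the spread between the pairs.

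The limma fit with the replicate block called 0 features. Without the replicate block it also called 0, with 197 features at an unadjusted p under 0.05, against 1082 with it. The other limma settings called 0 as well. Pearson's r of the pairs over features lay between 0.165 and 0.182 under the alternatives.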
